A study of Mus musculus with 8 samples.

Results

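The genes described here are the zinc finger genes of the Zfp, Zkscan and Zscan series, followed through the first steps of spermatogonial differentiation in the mouse. Members were the rows of the expression table whose symbol starts with Zfp, Zkscan or Zscan and a number. There were 114 of them among 5736 genes, 1.99% of the table: 107 Zfp, 3 Zkscan and 4 Zscan genes. The mm9 annotation used here holds 396 coding genes whose symbols meet this rule. The results therefore cover the members in the table and not the whole series. No expression value entered this choice.

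Germ cells were sorted by FACS for EGFP driven by the *Uchl1* promoter, from testes of *Uchl1-eGFP* mice outcrossed to CD1, and RNA was sequenced in bulk. All mice had been given WIN18,446, an inhibitor of retinoic acid (RA) synthesis, by mouth from postnatal day 1 at 100 µg per g of body weight, which holds spermatogonia undifferentiated. A subcutaneous dose of 10 µl RA at 10 µg/µl on postnatal day 11 then starts differentiation in step. The 8 libraries were 2 of undifferentiated Aal spermatogonia, 3 of early differentiating A1 spermatogonia (taken about 24 h after RA) and 3 of mid-differentiating A3 spermatogonia. The labels carry the same treatment text for every library and do not give the age at collection of each group. Each preparation pooled pups of 1 litter, so a library is a pool and not an animal. EGFP was reported by the study to be bright in spermatogonia in general, so the gate itself does not separate the stages.

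C2H2 zinc finger proteins are the most numerous class of DNA-binding proteins in mammals. Each finger folds around a zinc ion held by paired cysteines and histidines, and arrays of fingers read DNA sequence. Many carry a KRAB domain, which recruits the corepressor TRIM28 and, through it, the H3K9 methyltransferase SETDB1 to silence retroelements and to protect imprints in germ cells and embryos. SCAN domains let family members pair with each other. Other Zfp genes share only the name and encode RNA-binding, ribosome-associated or mitotic proteins.

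Recovered totals lay between 18276164 and 27316451 reads per library; the 5736 genes held 34.0% to 34.4% and the members 87630 to 132212 reads. Markers of undifferentiated spermatogonia (7 of 11 listed genes in the table) summed to 346 and 392 FPKM in Aal and to 72.5 to 117 in the other libraries. Markers of differentiating spermatogonia (5 of 7) summed to 53.2 and 65.4 FPKM in Aal and 133 to 208 in A1 and A3. The stage labels and these markers therefore pointed the same way. Sertoli cell markers (10 of 18 in the table) summed to 39.1 to 57.4 FPKM in Aal, A1-1 and A1-2, but to 376 in A1-3 and 198 to 370 in A3. None of these 10 was at 0. *Trf*, 1 of the 10, ran the other way, at 11 and 13.3 FPKM in Aal and 1.19 to 3.5 in A1 and A3. Leydig (3 of 7), myoid (3 of 5), endothelial (4 of 6) and macrophage (3 of 8) markers summed to at most 10.5 FPKM in any library, and no red blood cell marker was in the table. Absence from the table does not show absence of expression: *Kit* and *Stra8*, which the study reported as rising in A1, were not in it either. A1-3 stood apart from A1-1 and A1-2 by its somatic markers, and counts of members are given with and without it.

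The promoters of the members that changed most are shown first, because the cells were moved from Aal to A1 by RA. RA acts through receptors that bind pairs of hexamers. The classical hexamer is AGGTCA. Its close forms, searched as well, were GGGTCA, the form AGTTCA and also the form GGTTCA. The windows are RefSeq promoters (GRCm38.p6 table), 250 bases before to 50 after the transcript start, placed in mm9 by their only exact match. Of 114 members, 95 had a window, and of the 9 called members described below 7 had one. The windows of 6 of these 7 genes are printed, with 1 of the 3 windows of Zfp672, and that of Zfp365, which held no hexamer, is not. They run 5′ to 3′ on the strand of the gene, with any of the 4 hexamers, on either strand, in capitals. Zfp687, Zfp653 and Zfp672 rose. Zfp618, Zfp811 and Zfp773 fell.
Zfp687, upstream start (chr3:94819330-94819629, minus strand): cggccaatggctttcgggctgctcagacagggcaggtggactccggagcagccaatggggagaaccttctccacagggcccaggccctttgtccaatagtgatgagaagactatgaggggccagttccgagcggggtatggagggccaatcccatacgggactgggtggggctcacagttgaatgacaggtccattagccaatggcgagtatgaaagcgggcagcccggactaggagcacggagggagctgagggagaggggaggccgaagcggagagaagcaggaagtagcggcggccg
Zfp687, downstream start (chr3:94819111-94819410, minus strand): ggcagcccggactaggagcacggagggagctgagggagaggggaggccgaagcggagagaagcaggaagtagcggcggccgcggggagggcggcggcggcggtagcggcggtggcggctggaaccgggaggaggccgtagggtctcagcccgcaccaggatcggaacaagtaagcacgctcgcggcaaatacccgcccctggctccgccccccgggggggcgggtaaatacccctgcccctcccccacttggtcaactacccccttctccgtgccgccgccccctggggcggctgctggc
Zfp653 (chr9:21875771-21876070, minus strand): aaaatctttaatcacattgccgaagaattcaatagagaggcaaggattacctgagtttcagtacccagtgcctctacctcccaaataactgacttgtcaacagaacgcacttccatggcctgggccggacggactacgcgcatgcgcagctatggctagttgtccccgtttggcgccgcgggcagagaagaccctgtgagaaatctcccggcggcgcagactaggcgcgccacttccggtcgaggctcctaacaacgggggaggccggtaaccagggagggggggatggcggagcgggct
Zfp672, middle of 3 starts (chr11:58136818-58137117, minus strand): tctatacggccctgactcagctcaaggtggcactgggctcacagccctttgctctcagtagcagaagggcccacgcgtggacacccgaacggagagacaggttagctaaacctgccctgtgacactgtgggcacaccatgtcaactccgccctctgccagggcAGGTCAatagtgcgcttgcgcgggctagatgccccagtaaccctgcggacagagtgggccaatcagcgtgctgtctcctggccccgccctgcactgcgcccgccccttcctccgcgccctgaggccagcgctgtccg
Zfp618 (chr4:62626351-62626650, plus strand): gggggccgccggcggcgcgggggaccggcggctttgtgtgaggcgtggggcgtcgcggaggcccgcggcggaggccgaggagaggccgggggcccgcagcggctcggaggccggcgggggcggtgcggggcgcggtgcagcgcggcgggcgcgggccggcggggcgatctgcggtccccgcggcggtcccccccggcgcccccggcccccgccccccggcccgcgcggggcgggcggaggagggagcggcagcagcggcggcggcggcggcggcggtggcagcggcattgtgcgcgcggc
Zfp811 (chr17:32946827-32947126, minus strand): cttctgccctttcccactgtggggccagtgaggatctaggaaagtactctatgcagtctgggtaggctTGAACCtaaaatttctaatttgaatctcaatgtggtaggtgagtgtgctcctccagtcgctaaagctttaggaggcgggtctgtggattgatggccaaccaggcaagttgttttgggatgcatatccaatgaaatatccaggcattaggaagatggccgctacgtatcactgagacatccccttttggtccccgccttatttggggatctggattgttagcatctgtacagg
Zfp773 (chr7:7089417-7089716, minus strand): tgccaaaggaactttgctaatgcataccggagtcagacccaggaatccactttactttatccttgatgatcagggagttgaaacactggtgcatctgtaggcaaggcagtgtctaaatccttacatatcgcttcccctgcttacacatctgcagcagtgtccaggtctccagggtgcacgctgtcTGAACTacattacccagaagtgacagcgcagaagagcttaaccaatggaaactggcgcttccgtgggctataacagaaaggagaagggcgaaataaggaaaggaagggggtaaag

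In the windows printed, a hexamer appeared once each for Zfp672, Zfp811 and Zfp773 and not for Zfp687, Zfp653 or Zfp618. Another window of Zfp672, at chr11:58143792-58144091, held AGTTCA, and the third, at chr11:58136566-58136865, held none of the 4 hexamers. A single hexamer is common: 43.7% of 32851 promoters held at least 1 of the 4, as did 46.7% of the 120 promoter windows of members. By letters, AGGTCA was in 16.3% of all promoters and 14.2% of member promoters, and GGGTCA in 13.7% and 13.3%. For AGTTCA the shares were 14% and 15%, and for GGTTCA 10.4% and 12.5%. The windows differed more in base composition. That of *Zfp618* held 59 CpG, the downstream window of *Zfp687* 30 CpG and 6 GC boxes (GGGCGG, either strand), its upstream window 5 CCAAT letters (either strand), and those of *Zfp773* and *Zfp811* 7 and 5 CpG. The median was 14 CpG over member windows and 7 over all. The *Zfp811* window starts upstream of the gene model in the mm9 annotation, which ends at 32937883. *Zfp703* and *Zfp449* had no window.

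Most members were expressed at low to middle levels. FPKM scales reads to gene length and to library size, so it can be compared between genes. The median member averaged 4.48 FPKM over the 8 libraries, against 5.93 for the median gene of the table, and 71.9% of members averaged under 10 FPKM, against 60.5% of all genes. That median member rested on 330 reads per library, a counting error of 5.51%. In all, the members took 0.892% to 0.953% of the FPKM of the table in every library, so their summed share was nearly the same in the 3 stages.

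The level divided along domain lines. A KRAB pattern was found in the predicted protein of 64 members and not in 47, while 3 could not be assigned: *Zfp738* and *Zfp383* had no unambiguous match in the annotation, and *Zfp85os*, an opposite-strand transcript, was left out of both classes (the annotation gives it a protein of 105 residues with no finger, whereas RefSeq lists it as noncoding). The pattern is loose, missing *Zkscan3* and matching 215 of 21921 coding genes with no C2H2 finger. KRAB members had a median of 12 fingers and a median level of 3.22 FPKM, the highest at 18.5 FPKM. Members without the pattern had a median of 5 fingers and a median of 11.2 FPKM, and all 11 members at 30 FPKM or more were among them. There were 5 members with no finger of the canonical spacing, *Zfp703*, *Zfp503* and *Zfp365* among them.

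The 5 most abundant members all lacked the KRAB pattern, and none passed the test in any comparison. *Zfp207*, which encodes the spindle assembly and kinetochore protein BuGZ, stood well above the rest at 117 and 118 FPKM in Aal, 127, 127 and 132 in A1, and 128, 121 and 117 in A3. *Zfp740* followed at a mean of 48.9 FPKM and *Zfp638* at 47.7. The product of *Zfp638* binds RNA and DNA and silences unintegrated retroviral DNA. *Zfp142* and *Zfp598* averaged 39.9 and 39.1 FPKM, and from *Zfp740* down neighbours in this order overlapped in level across libraries. *Zfp207* and *Zfp142* each overlap another annotated gene on their own strand, so their reads are uncertain to that extent. At the other end, 14 members averaged under 1 FPKM, down to *Zfp599* at 0.130.

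Few members changed across the 3 stages. The test was limma on log2(FPKM + 1), and fold changes are on this scale, which understates the change of low genes. A gene was called at an adjusted p of at most 0.01 with a log2 fold change beyond 1. Of 104 members tested in A1 against Aal, 2 were called, both lower, a share of 1.92%. Over all 4632 genes tested, 4.19% were called higher and 4.97% lower. At the p threshold alone, 2 members were higher and 5 lower (1.92% and 4.81%), against 13% and 14% of all genes.

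In A3 against A1, no member was called of 104 tested, against 0.479% of all genes called higher and 1.02% called lower. At the p threshold 3 members were higher and 0 lower, against 2.16% and 5.45% of 4590 genes. Leaving out A1-1, A1-2, A3-2 or A3-3 left 0 members higher. In those fits the share of all genes past the p threshold also fell, from 7.6% to 3.63%, 1.65%, 1.3% and 1.74%. Without A1-3, 1 member was higher, and 6.8% of all genes passed. Without A3-1, 5 members were higher, and 8.73% of all genes passed. In A3 against Aal, which spans both steps, 3 members were called higher and 6 lower of 104 tested (8.65% in all). Of 4687 genes, 7.87% were called higher and 9.69% lower. At the p threshold 9 members were higher and 10 lower (8.65% and 9.62%), against 21.9% and 21.8% of all genes. Among the 106 members tested in any comparison, the 19 past the p threshold at least once were those of A3 against Aal. There, 18.3% of members passed, against 43.7% of all genes. The 9 called at least once were likewise those called in A3 against Aal, 8.65% of members against 17.6% of all genes.

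The median log2 fold change of members was -0.01 in A1 against Aal, 0.06 in A3 against A1 and 0.06 in A3 against Aal, beside 0.03, 0.01 and 0.05 over all genes. The median size of change, regardless of sign, was 0.22 for members in A3 against Aal and 0.39 for all genes. A change under 0.5 on the log2 scale was found for 79.8% of members and 57.9% of all genes. For comparison at like levels, among the 1607 genes in the middle level range of the members (2.65 to 12.7 FPKM), 24.3% were called in A3 against Aal, and of the 52 members in that range 7.69% were (4). That range was chosen after the values were seen.

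**Figure D1:**
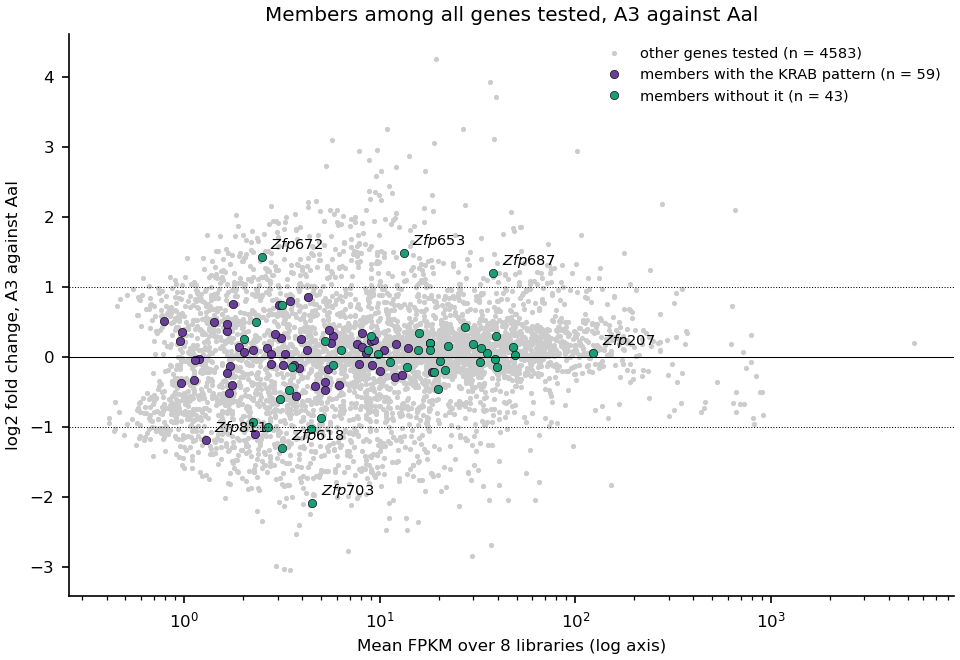
Each point is a gene tested in A3 against Aal, with its mean FPKM over 8 libraries on a log axis and its log2 fold change on log2(FPKM + 1); dotted lines mark a log2 fold change of 1 in either direction. Most members lie close to 0, and 3 lie above and 6 below the dotted lines.

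Few KRAB members passed. In A1 against Aal, 1 of 57 tested KRAB members passed the p threshold (*Zfp811*, lower), and 6 of 45 members without the pattern did. In A3 against Aal, 3 of 59 KRAB members were higher and 3 lower, 10.2% in all, while 6 and 7 of 43 without the pattern were, 30.2% in all. The difference between these subsets was not tested. The share of KRAB members that passed stood below the 43.7% of all genes past the p threshold in that comparison. By number of fingers, 6 of 21 tested members with 0 to 4 fingers passed in A3 against Aal, 6 of 31 with 5 to 9, and 7 of 50 with 10 or more.

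**Figure D2:**
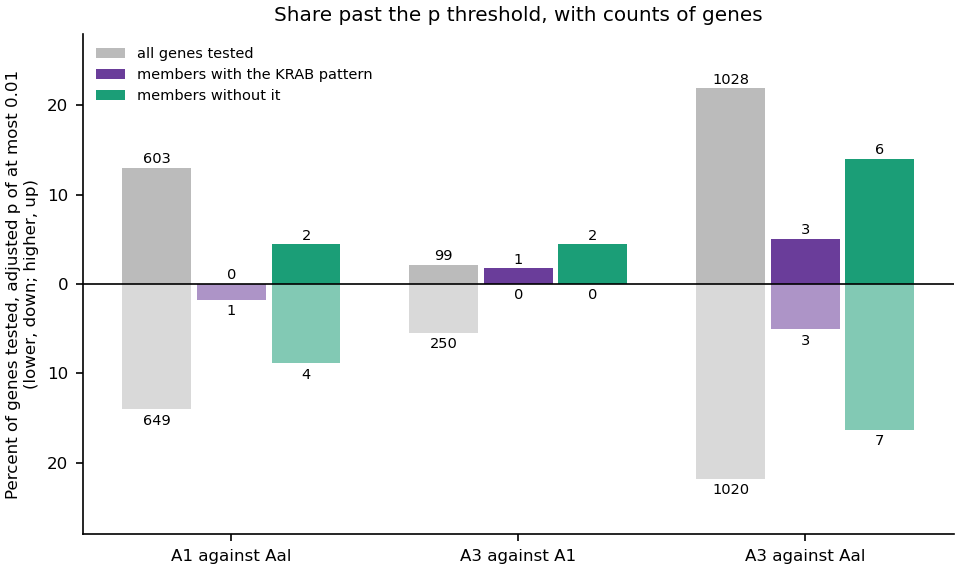
Bars give the percent of tested genes with an adjusted p of at most 0.01, higher upwards and lower downwards, for all genes and for members with and without the KRAB pattern, with the number of genes at each bar. In A3 against Aal the bars of KRAB members are at 5.08% in each direction, against 21.9% and 21.8% for all genes.

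Among the members that fell, *Zfp703* changed most. It encodes a transcriptional corepressor of the NET family, with no finger of canonical spacing, and lies on chromosome 8 at 28087808 to 28091933 (mm9, plus strand). Its level was 12.7 and 10.5 FPKM in Aal, 2.66, 1.73 and 2.47 in A1, and 1.52, 2.5 and 1.93 in A3. Aal stood apart from both later stages without overlap, and A1 and A3 overlapped. The mean was 11.6 ± 1.57 FPKM (SD, n = 2) in Aal and 2.29 ± 0.493 (SD, n = 3) in A1, 5.08-fold lower. On the log2 scale the difference of A1 from Aal was -1.95 (SE 0.17; limma adjusted p 0.00028), and A3 against Aal gave -2.09 (SE 0.17; limma adjusted p 3.78e-05). Of its change, nearly all had occurred by A1: A3 against A1 gave -0.14 (limma adjusted p 0.628).

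Its paralog *Zfp503*, the other member of the NET family, was barely detected and was not tested under the filter. It stood at 0.295 and 0.0851 FPKM in Aal, 0.545, 0.617 and 0.442 in A1, and 0.601, 0.701 and 0.592 in A3, on 39 reads in Aal and 177 in A3. The Aal libraries were the lowest for *Zfp503* and the highest for *Zfp703*. With no filter on low values *Zfp503* gave a log2 fold change of 0.46 in A3 against Aal (limma adjusted p 0.00601).

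*Zfp811*, a KRAB gene with 13 fingers on chromosome 17 (32934351 to 32937883, minus strand), was the other member called in A1 against Aal. It was at 2.97 and 3.00 FPKM in Aal, 0.764, 0.680 and 0.616 in A1, and 1.11, 0.579 and 0.602 in A3. Both later stages lay below Aal in every library, with A3-1 the highest of them. Since every A1 value was under 1 FPKM, it met the filter in A1 against Aal through the Aal libraries alone, and it dropped out of that test when either of them was left out. In A3 against A1 it was not tested. A1 against Aal gave a log2 fold change of -1.24 (SE 0.12, limma adjusted p 0.00037) and A3 against Aal -1.19 (SE 0.16, limma adjusted p 0.000395). It rested on 523 reads in Aal and 164 in A1, and it contains a U1 gene on its own strand.

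*Zfp618* stood lower at each stage. Its product binds UHRF1, the protein that brings DNMT1 to hemimethylated DNA, and the gene spans 62626607 to 62800742 on chromosome 4 (plus strand). The 8 values were 5.67 and 5.39 FPKM in Aal, 3.15, 3.54 and 2.65 in A1, and 1.69, 1.68 and 1.59 in A3, with no overlap between any of the 3 groups. The first step, A1 against Aal, gave -0.67 on the log2 scale (SE 0.14, limma adjusted p 0.00696). A3 against A1 gave -0.63 (SE 0.12) and missed the threshold at a limma adjusted p of 0.0121. The net change, A3 against Aal, was -1.3 (SE 0.12, limma adjusted p 7.49e-05).

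*Zfp449*, a SCAN-domain gene on the X chromosome (53599577 to 53618851, plus strand), showed the same stepwise order. It read 6.90 and 6.77 FPKM in Aal, 4.61, 4.02 and 4.65 in A1, and 3.13, 3.02 and 2.47 in A3. Its net log2 fold change was -1.02 (SE 0.13, limma adjusted p 0.000349). *Zfp773*, a KRAB gene on chromosome 7, was at 3.56 and 4.11 FPKM in Aal, 2.38, 2.19 and 2.35 in A1, and 1.71, 1.05 and 1.03 in A3. It was called in A3 against Aal (-1.10, SE 0.17, limma adjusted p 0.000682) and missed the threshold in A1 against Aal (limma adjusted p 0.0117).

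*Zfp365*, whose product binds the scaffold protein DISC1 and acts at the centrosome, completed most of its fall by A1, as *Zfp703* had. It was at 4.17 and 5.24 FPKM in Aal, 2.29, 2.16 and 2.13 in A1, and 2.21, 1.60 and 1.72 in A3. Its log2 fold change was -0.83 (SE 0.14, limma adjusted p 0.00253) in A1 against Aal and -1.01 (SE 0.15, limma adjusted p 0.000767) in A3 against Aal. The other 4 members that fell in A3 against Aal did so by less than 1 on the log2 scale: *Zscan5b* by 0.93, *Zscan2* by 0.86, *Zfp946* by 0.56 and *Zfp280b* by 0.46. Each of the 4 had a limma adjusted p between 0.000941 and 0.00856 and showed no overlap between A3 and Aal.

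**Figure D3:**
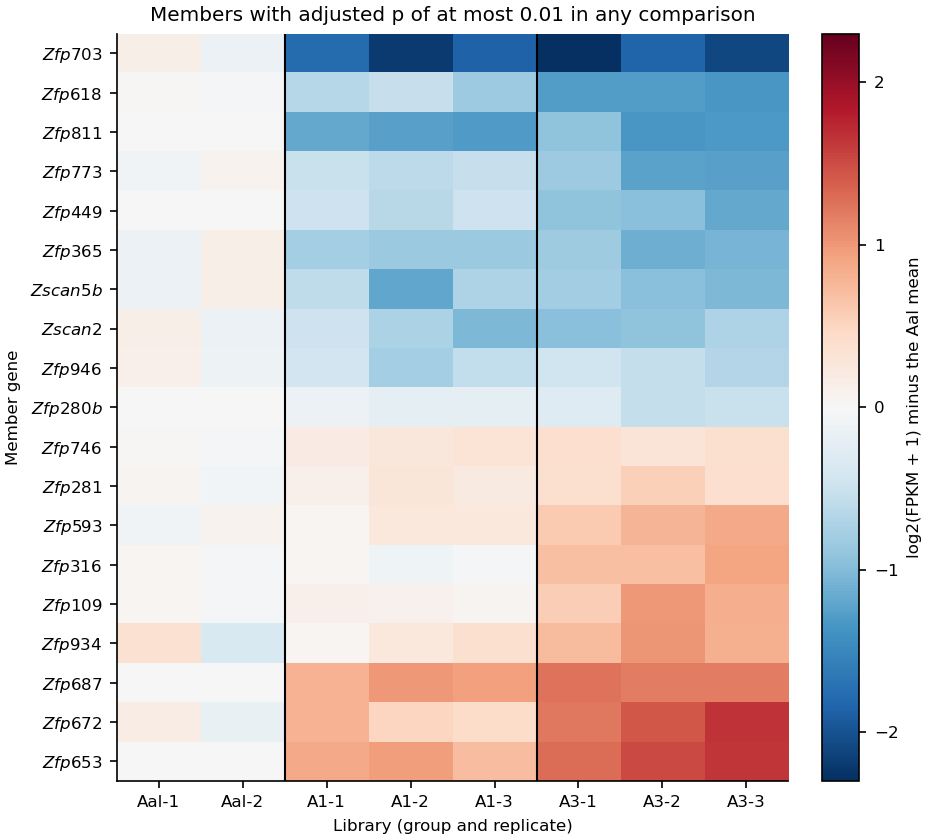
The 19 members past the p threshold in at least 1 comparison are rows and the 8 libraries columns; colour gives log2(FPKM + 1) minus the mean of the Aal libraries. The 10 members that fell are at the top with *Zfp703* first, and the 9 that rose are at the bottom with *Zfp653* last.

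Of the members that rose, *Zfp687* had the highest level. It works with *Zfp532* and *Zfp592* in a complex that joins the chromatin reader ZMYND8, and lies on chromosome 3 (94810512 to 94819370, minus strand). Its level was 20.6 and 20.3 FPKM in Aal, 36.4, 41.6 and 40.5 in A1, and 49.9, 47.2 and 47.5 in A3, higher at each later stage without overlap. The group means were 20.5 ± 0.203 FPKM (SD, n = 2), 39.5 ± 2.75 (SD, n = 3) and 48.2 ± 1.49 (SD, n = 3). A1 against Aal gave a log2 fold change of 0.91 (SE 0.08, limma adjusted p 0.000262) and A3 against Aal 1.2 (SE 0.07, limma adjusted p 1.32e-05). The gain from A1 to A3, 0.28, had a limma adjusted p of 0.0218 and did not pass.

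*Zfp532*, its partner gene, was measured at a similar level and did not pass in any comparison. It read 20.8 and 19.4 FPKM in Aal, 22.0, 24.9 and 23.8 in A1, and 18.9, 24 and 25.1 in A3, so that A3 overlapped Aal. *Zfp687* was thus level with *Zfp532* in Aal and above it in every A1 and A3 library. *Zfp592* was not in the expression table. *Zfp687* overlaps *Pi4kb* on the other strand, and whether counting used strand is not given in the sources used here.

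*Zfp653*, whose product is a corepressor of the nuclear receptor NR5A1, was the only member to pass the p threshold in both steps. It lies on chromosome 9 (21859904 to 21875789, minus strand). It was at 6.23 and 6.14 FPKM in Aal, 12.1, 13.0 and 10.8 in A1, and 16.6, 19.7 and 21.5 in A3. The 3 groups did not overlap. The log2 fold change was 0.85 (SE 0.11, limma adjusted p 0.000897) in A1 against Aal, 0.64 (SE 0.11, limma adjusted p 0.00779) in A3 against A1, and 1.49 (SE 0.12, limma adjusted p 3.67e-05) in A3 against Aal. In means, A3 was 3.11-fold above Aal. In A3 against A1, *Zfp653* lost the threshold in 7 of 14 alternatives, among them the fit without A1-3. The gene overlaps Gm16845 on the other strand.

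*Zfp672* rose from a low level, at 1.14 and 0.688 FPKM in Aal, 2.29, 1.69 and 1.56 in A1, and 3.39, 4.14 and 4.98 in A3. A3 exceeded Aal 4.57-fold in means, on 163 reads in Aal and 1029 in A3, with a log2 fold change of 1.43 (SE 0.18, limma adjusted p 0.000249). A1 against Aal (0.57) missed the threshold at a limma adjusted p of 0.0324, and A3 against A1 (0.86) passed at 0.00966. The latter lost the threshold in 9 of 13 alternatives, among them the fit without A1-3. The gene overlaps 1700047K16Rik on the other strand.

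**Figure D4:**
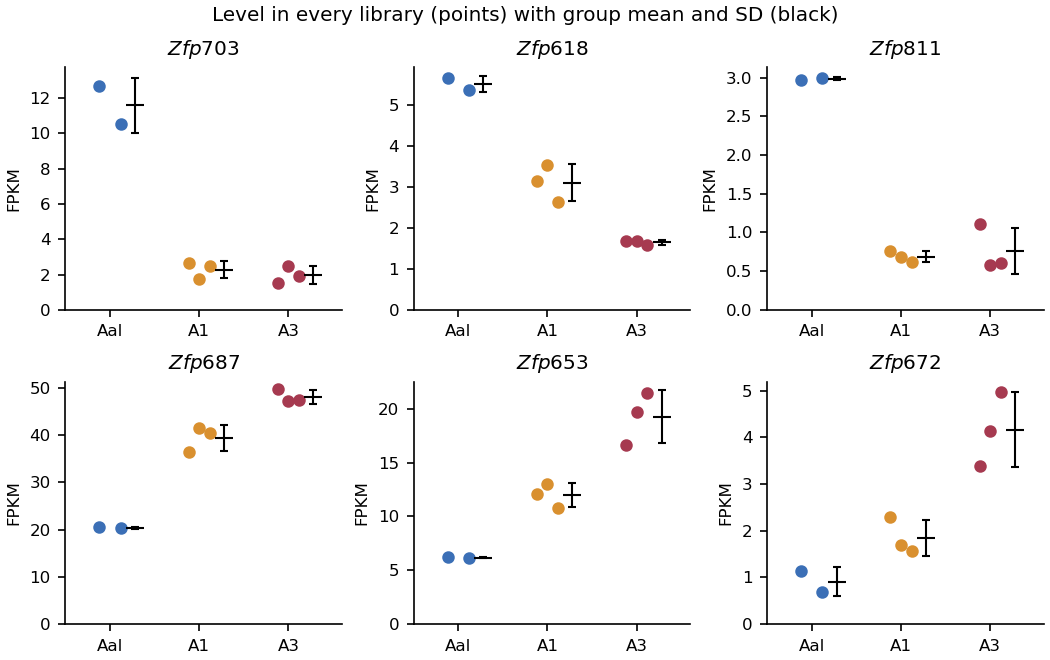
Points give the FPKM of each library for 6 called members, 3 that fell (top) and 3 that rose (bottom), and black marks the group mean with its SD (n = 2 in Aal, 3 in A1 and in A3); each axis starts at 0. *Zfp703* and *Zfp811* reach their low level by A1, while in *Zfp618*, *Zfp687*, *Zfp653* and *Zfp672* every A3 library is farther from Aal than every A1 library.

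A later rise was seen for *Zfp316*, a KRAB gene. It did not differ detectably between Aal (1.3 and 1.14 FPKM) and A1 (1.3, 1.07 and 1.14), and stood at 2.57, 2.57 and 3.17 in A3. Its log2 fold change was 0.79 (SE 0.12, limma adjusted p 0.00481) in A3 against A1 and 0.76 (SE 0.14, limma adjusted p 0.00175) in A3 against Aal. In A3 against A1 it lost the threshold in 5 of 13 alternatives. *Zfp109* (2.52 and 2.33 FPKM in Aal, 2.73, 2.68 and 2.57 in A1, 4.09, 5.80 and 5.13 in A3) had the same form. Its rise passed in A3 against Aal (0.80, limma adjusted p 0.0025) and fell just short in A3 against A1 (limma adjusted p 0.0101). *Zfp934* and *Zfp593* rose by 0.86 and 0.75 in A3 against Aal (limma adjusted p 0.00756 and 0.00218), with the Aal libraries of *Zfp934* at 3.89 and 2.04 FPKM. Without Aal replicate 2, the difference of *Zfp934* was 0.51 (limma adjusted p 0.0601), and it lost the threshold in 5 of 13 alternatives. Another member that rose was *Zfp746*, whose product PARIS is a substrate of the ubiquitin ligase Parkin. It was at 13.6 and 12.9 FPKM in Aal and 17.7, 16.6 and 17.3 in A3, a difference of 0.35 (SE 0.09, limma adjusted p 0.00812) that lost the threshold in 7 of 13 alternatives.

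By their sum, Sertoli markers were high in A3 and in A1-3 and low in the other libraries, although *Trf* was highest in Aal. In A1-1 and A1-2, where those markers summed to 57.4 and 55.7 FPKM against 49.7 and 39.1 in Aal, *Zfp703* was at 2.66 and 1.73 FPKM, *Zfp687* at 36.4 and 41.6 and *Zfp653* at 12.1 and 13.0, each apart from Aal. Without A1-3, A1 against Aal again had 2 members called, and 4 higher and 8 lower at the p threshold. Of all genes, 31.7% passed the p threshold in that fit, against 27% with A1-3 included. A1-3 had the highest Sertoli sum of the 8 libraries. In A1-3, *Zfp316* was at 1.14 FPKM, *Zfp109* at 2.57, *Zfp593* at 2.74 and *Zfp934* at 3.99, each below every A3 library (2.57 to 3.17, 4.09 to 5.80, 3.82 to 4.81 and 5.39 to 6.81). *Zfp746*, at 16.7 FPKM in A1-3, lay within its A3 range (16.6 to 17.7). Without A1-3, 1 member was higher and 1 lower in A3 against A1, where 6.8% of all genes passed, against 7.6% with it. The Sertoli sums were 198 to 370 FPKM in A3 and 49.7 and 39.1 in Aal. Stage and Sertoli content therefore cannot be told apart in A3 against Aal. In sorted bulk cells, fewer cells of a type and less RNA per cell cannot be told apart either.

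*Zfp423*, a factor with 27 fingers that binds EBF and SMAD proteins, was under the filter but had its highest level in A1. It was at 0.0746 and 0.0877 FPKM in Aal, 0.787, 0.931 and 1.04 in A1, and 0.254, 0.322 and 0.254 in A3, with no overlap between groups, on 20, 306 and 92 reads. In means A1 was 11.3-fold above Aal. With no filter on low values its log2 fold change was 0.83 in A1 against Aal (limma adjusted p 0.00131) and -0.59 in A3 against A1 (limma adjusted p 0.00535). A1-3, the library with high Sertoli markers, held the highest value, with the other A1 libraries close to it.

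By role, few groups moved together. The list for imprints and retroelements had 1 of its 9 genes in the table, *Zfp57*, which protects imprints from demethylation. It was at 2.85 and 2.43 FPKM in Aal and 3.03 to 3.56 in A1 and A3, and did not pass in any comparison. Of 16 genes listed for pluripotency and germline, 4 were in the table, and 1 was higher and 2 lower in A3 against Aal, beside 21.9% and 21.8% of all genes. *Zfp281*, a repressor of *Nanog*, rose by 0.43 (SE 0.09, limma adjusted p 0.00317), from 24 and 21.8 FPKM to 29.7, 33.8 and 30.2. *Zscan5b* and *Zscan2* were the 2 that fell, and *Zscan21* stayed between 29.7 and 35.0 FPKM in all libraries.

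Of 14 genes listed for RNA binding, decay, splicing and ribosomes, 7 were in the table and 1 passed in A3 against Aal, beside 43.7% of all genes. This was *Zfp593*, a ribosome biogenesis factor, at 1.99 and 2.36 FPKM in Aal and 3.82, 4.42 and 4.81 in A3. *Zfp598*, the ubiquitin ligase that senses collided ribosomes, was at 32.3 and 34.5 FPKM in Aal and 36.0 to 45.4 later, and *Zfp36l2*, which speeds decay of AU-rich mRNAs, at 32.5 and 26.9 FPKM in Aal, 32.7 to 38.9 in A1, just above Aal, and 30.2 to 36.1 in A3, overlapping Aal. Neither passed. Of 20 general DNA-binding factors listed, 10 were in the table, 8 were tested and 2 passed in A3 against Aal, *Zfp687* and *Zfp703*, a share of 25% against the same 43.7%. *Zfp148*, *Zfp335* and *Zfp292* stayed within 12 to 15, 27.1 to 34.0 and 30.4 to 40.5 FPKM. Of 11 genes listed as pairing SCAN with KRAB, 3 were in the table (*Zkscan3*, *Zkscan5* and *Zkscan14*), and none passed. *Zfp110*, not listed but with both domains found by residue pattern, did not pass either.

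The machinery through which KRAB proteins silence DNA was abundant, and most of its measured genes passed in A3 against Aal. Of 35 genes listed, 12 were in the table, from 15.3 to 161 FPKM. In A1 against Aal, 4 were higher and 2 lower at the p threshold, and in A3 against Aal 5 were higher and 3 lower. Of all genes, 27% and 43.7% passed in these comparisons. *Trim28* averaged 139 ± 8.73 FPKM in Aal (SD, n = 2) and 183 ± 14.2 in A3 (SD, n = 3), higher by 0.39 on the log2 scale (limma adjusted p 0.00485). *Setdb1* went the other way, from 88.4 ± 0.459 to 72.6 ± 1.49 FPKM (-0.28, limma adjusted p 0.00465).

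*Uhrf1*, *Dnmt1* and *Dnmt3b* rose early. *Uhrf1* was at 51.3 and 45.3 FPKM in Aal and 102 to 125 in A1 and A3, with a log2 fold change of 1.19 (SE 0.07, limma adjusted p 0.000127) in A1 against Aal. *Dnmt1* rose by 0.92 and *Dnmt3b* by 1.25 in the same comparison (limma adjusted p 0.000263 and 0.000221), while *Dnmt3a* (-0.13, limma adjusted p 0.24) did not pass in any. *Uhrf1* therefore rose while *Zfp618*, which encodes its binding partner, fell. In A3 against A1 none of the 12 passed.

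Other zinc finger families gave small counts. In A3 against Aal, 2 of 11 tested Zbtb rows were higher and 2 lower, 2 of 5 Prdm genes higher and 0 lower, and 0 of 4 Klf and Sp genes higher and 2 lower, beside 21.9% higher and 21.8% lower over all genes. *Prdm9*, the methyltransferase that places recombination sites, was at 1.58 and 1.25 FPKM in Aal and 3.24 to 4.79 in A1 and A3.

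Many KRAB genes stand in clusters of near copies. Of 112 members with a position, 48 lay in 12 clusters of at least 3 members with gaps of at most 1 Mb, and 42 of those 48 had the KRAB pattern. The cluster with most members, 7, was on chromosome 17 (21560191 to 22593656). It had 5 tested members and 1 past the p threshold in A3 against Aal, *Zfp946*. In the next, on chromosome 7 (6173880 to 7089466), 2 of 6 tested members were lower in A3 against Aal, *Zscan5b* and *Zfp773*. Of all genes, 43.7% passed in that comparison, and 21.8% were lower. The *Zfp811* cluster (chromosome 17, 32934351 to 33170347) also held *Zfp472* and *Zfp763*, which did not pass in any comparison: *Zfp472* was at 3.19 and 3.44 FPKM in Aal and 3.85 to 4.46 in the other libraries. Reads shared between near copies may have been dropped or assigned to 1 copy, so levels within a cluster are uncertain.

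A cluster on chromosome 4 (145658647 to 147052416) held 5 KRAB members, none of which passed in any comparison, yet several varied widely between replicates of a group. *Zfp600* was at 6.30, 3.42 and 2.5 FPKM in A3, and *Zfp982* at 7.48, 4.65 and 3.41 in the same libraries. *Zfp981* ran the other way, at 5.38, 11.5 and 8.96 FPKM. In A3 these 3 had the largest ratios of highest to lowest replicate of the 87 members that averaged at least 2 FPKM: 2.52, 2.19 and 2.14, against a median of 1.2. In A1, *Zfp600* (3.35, 4.79 and 5.85 FPKM) and *Zfp982* (4.15, 6.31 and 6.04) were again lowest in the library where *Zfp981* was highest, A1-1, at 9.23 against 7.43 and 7.34.

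**Figure D5:**
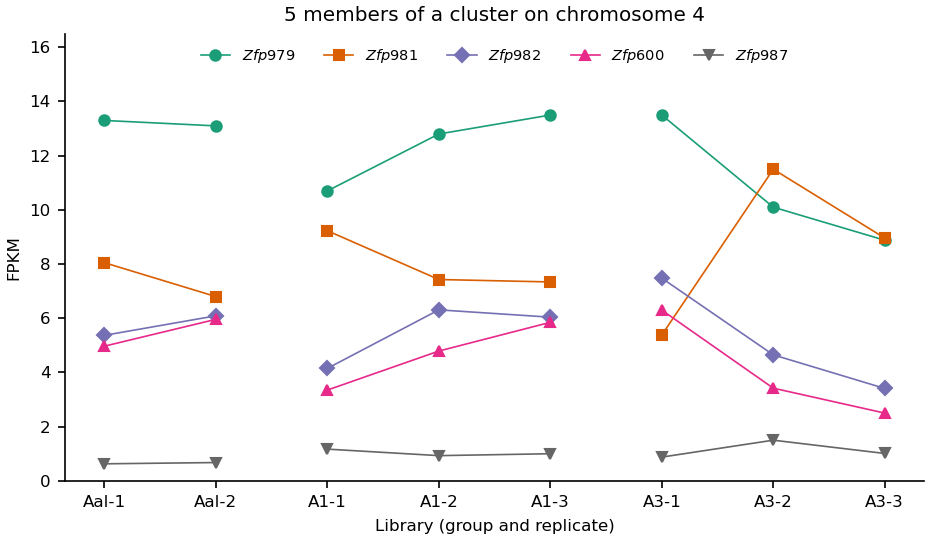
FPKM of the 5 members of the chromosome 4 cluster in each of the 8 libraries, with lines joining replicates of a group only to guide the eye. *Zfp600*, *Zfp982* and *Zfp979* are highest in A3-1, where *Zfp981* has its lowest A3 value.

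*Zfp979*, also known as Ssm1b, a strain-specific modifier of DNA methylation, followed *Zfp600* and *Zfp982* in A3 at 13.5, 10.1 and 8.88 FPKM, and *Zfp987* was low throughout, from 0.628 to 1.5. The spread of *Zfp600* in A3 was not one of low counts: the 3 libraries held 514, 329 and 272 reads. *Zfp979* and *Zfp600* overlap other annotated genes on their own strand. With this spread, the log2 fold change of *Zfp600* in A3 against Aal (-0.42, SE 0.28) was not distinguishable from 0 here.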

How the data were processed

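RNA from 8 pools of FACS-isolated *Uchl1*-EGFP+ germ cells was made into libraries with the TruSeq Stranded mRNA kit and sequenced single-end. The authors trimmed reads with cutadapt 1.9, aligned them to mm9 with STAR 2.5.2b, counted them with featureCounts and deposited FPKM values, 1 column per library. The annotation, strand setting and FPKM step are not given in the sources used here.

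Whole reads were recovered from the FPKM steps (100% of values rebuilt within 0.2%) and used for depth and 1 alternative. For each pair of groups, limma 3.58.1 (R 4.3.3) was run on log2(FPKM + 1), with lmFit and eBayes with trend. Genes with at least 1 FPKM in at least 2 of these libraries were tested, and p-values were adjusted by Benjamini-Hochberg over all of them. Tests were two-sided, and p-values measure the spread between independent cell preparations. The study's methods used counts, and a count model takes no FPKM values, so limma was used here. The scripts were checked on simulated data.

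Positions come from GENCODE M1 (mm9): 98 members matched by symbol, 14 by a RefSeq synonym and 2 not. A finger was C, 2 to 4 residues, C, 12 residues, H, 3 to 5 residues, H in the longest coding sequence, and KRAB a short residue pattern in the first 320. Genes named are the up to 10 largest rises and falls past the p threshold without overlap in each comparison, the 5 most abundant members, members of role lists, and examples from clusters. *Zfp423*, *Zfp503*, *Zfp532* and the spread in the chromosome 4 cluster were singled out after their values were seen. Members and lists were chosen with earlier results of these data known. Alternatives were another pseudocount, filters, scaling, threshold, trend, all libraries, voom, a block for replicate number, and fits without 1 library.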

Additional observations from a re-analysis of the deposited data

How the results depend on the processing

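Of 29 named gene and comparison pairs, none changed sign in any alternative run, and 286 of 366 alternative values kept their side of the p threshold, while 80 lost it. The values of *Zfp423* and *Zfp503* come from the fit with no filter alone. *Zfp703* and *Zfp687* kept theirs in the comparisons with Aal in every alternative run, as did *Zfp618*, *Zfp449* and *Zfp653* in A3 against Aal. *Zfp811*, and *Zfp672* in A3 against Aal, kept theirs wherever they were tested: *Zfp811* was tested in 10 of 13 alternatives in A1 against Aal, not without either Aal replicate nor with a minimum of 5 FPKM. The share of members called stayed below that of all genes in every fit run at the main threshold. Members called, of 2, 0 and 9 in A1 against Aal, A3 against A1 and A3 against Aal, became 1 and 5 in the first and last with a minimum of 5 FPKM, which tests fewer genes. With voom on recovered reads they were 5, 2 and 17, and with a pseudocount of 0.1 FPKM 1 and 15 in the last 2. Both settings shrink low genes less, and whether this made the difference was not tested. The cause of the other changes below was not tested either.

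At the p threshold, A1 against Aal (2 higher, 5 lower) had 3 lower with no filter and with a minimum of 5 FPKM, 9 on all 8 libraries and 11 with voom, and 8 higher and 16 lower at an adjusted p of 0.05. A3 against A1 (3 higher, 0 lower) had 1 higher with a minimum of 5 FPKM, 5 with voom and on all 8 libraries, and 12 at 0.05. It had 1 lower with no filter, no trend, all libraries and voom, and 5 at 0.05. A3 against Aal (9 higher, 10 lower) had 5 lower with a minimum of 5 FPKM, and 16 higher and 16 lower at 0.05.

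Leaving out 1 library gave 1 to 2 called, 1 to 4 higher and 1 to 8 lower in A1 against Aal, 0 to 5 higher and 0 to 1 lower in A3 against A1, and 4 to 13 higher and 5 to 16 lower in A3 against Aal. Fits with 1 Aal library assume it varies like the other group. All 3 rises in A3 against A1 were lost without A1 replicate 1 or 2, and likewise without A3 replicate 2 or 3. The share of all genes past the p threshold also fell in these fits, from 7.6% to between 1.3% and 3.63%. Without A1 replicate 3 there was 1 rise, and without A3 replicate 1 there were 5. In A1 against Aal the lower count was 8 without A1 replicate 3 and 2 without A1 replicate 2, and in A3 against Aal 16 without A3 replicate 1. The median log2 fold change of members in A1 against Aal ran from -0.06 to 0.06.

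Same-numbered libraries did not deviate together (correlations of -0.323 to 0.0451 over genes), so the numbers are taken as names. A replicate block gave 0 higher in A3 against A1 and 5 in A3 against Aal.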
